A study of Mus musculus with 6 samples.

Results

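A group of 10 genes that set or keep the epithelial state of a tissue, 8 of transcription factors and 2 of splicing factors, was followed in the E13.5 mouse pancreas. They were the Grainyhead-like genes Grhl1, Grhl2 and Grhl3, the splicing regulators Esrp1 and Esrp2, the ETS factors Elf3, Ehf and Elf5, and the zinc finger genes Ovol1 and Ovol2. They were chosen by name, but with earlier results of these data known. All 10 had 1 row with a single gene symbol on the array, among 19938 genes tested. Pdx1-Cre; Ctnnb1tm1Mmt/+ embryos gave 3 mutant pools, and embryos labelled wild type gave 3 control pools. A pool held 3 whole pancreata and was hybridised to its own Affymetrix Mouse Gene 1.0 ST array. In the mutant embryos, Cre under the Pdx1 promoter removes the floxed exon 3 of 1 Ctnnb1 copy in the pancreatic epithelium. This leaves a β-catenin that escapes breakdown, while the mesenchyme around it carries the unrecombined allele. The study also found mutant epithelial cells that lacked nuclear β-catenin and kept normal levels of pancreatic transcription factors. In newborn pancreata it proposes inefficient excision as the likely reason. The mutant pools can thus hold both kinds of epithelial cells. The sources used here do not say whether control embryos carried Cre or the floxed allele alone. Values are log2 array values as deposited. They can be compared between pools for 1 gene but not between genes. Ctnnb1 itself, whose array value does not separate the intact from the truncated transcript, was at 12.64, 12.37 and 12.65 in the mutant pools and 12.36, 12.14 and 12.32 in the control pools (log2 change 0.28 ± 0.11 SE, limma adjusted p = 0.148; 0.37 and past the threshold without mutant replicate 2). Arrays of 1 genotype correlated at 0.993 to 0.997 over genes and arrays of different genotypes at 0.973 to 0.979.

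An epithelial cell keeps its junctions, its polarity and its own set of splice forms through a small group of regulators. Grainyhead-like factors bind and open the regulatory regions of adhesion and tight junction genes such as Cdh1, and the ETS factors Elf3, Ehf and Elf5 act in differentiating epithelia of gut, skin, airway and mammary gland. The Esrp proteins select the epithelial splice forms of Fgfr2, Cd44, Ctnnd1 and Enah, and Ovol proteins repress Zeb1 and other genes of the mesenchymal state. On the opposing side, Zeb and Snail proteins bind E-boxes and repress epithelial genes.

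Of the 10 regulators, 4 were lower in the mutant pools, Ehf, Elf3, Esrp2 and Esrp1, and none was higher (adjusted p under 0.05 from limma, n = 3 pools per genotype). Over all genes tested, 7.53% were lower and 6.59% higher at this threshold, that is 1502 and 1313 genes. The regulators were not chosen blind to these data, so the shares are set side by side as a description only. At an unadjusted p of 0.05 still none of the 10 was higher and 5 were lower, against 12% of all genes lower. With arrays centred on housekeeping genes the split was 1844 lower and 822 higher, with arrays centred on their medians 1366 lower and 1615 higher, and after quantile normalization 1538 lower and 1583 higher. In 5 of the 10, the 4 genes and Grhl2, every mutant pool lay below every control pool, which held for 13.9% of all genes. In none did every mutant pool lie above every control pool (16.9% of all genes), so that 5 of the 10 had genotypes apart in either direction, against 30.9% of all genes. The median log2 change of the 10 was -0.28, against 0.03 over all genes. The decreases were unequal within the group, with the ETS genes Ehf and Elf3 at 3.91-fold and 2.58-fold, the Esrp genes at 1.92-fold and 1.71-fold, and the other regulators at no more than 1.22-fold in either direction. At least 2-fold decreases, reached by Ehf and Elf3, were seen in 2.09% of all genes. In whole-organ RNA, fewer epithelial cells and less RNA per epithelial cell cannot be told apart.

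**Figure D1:**
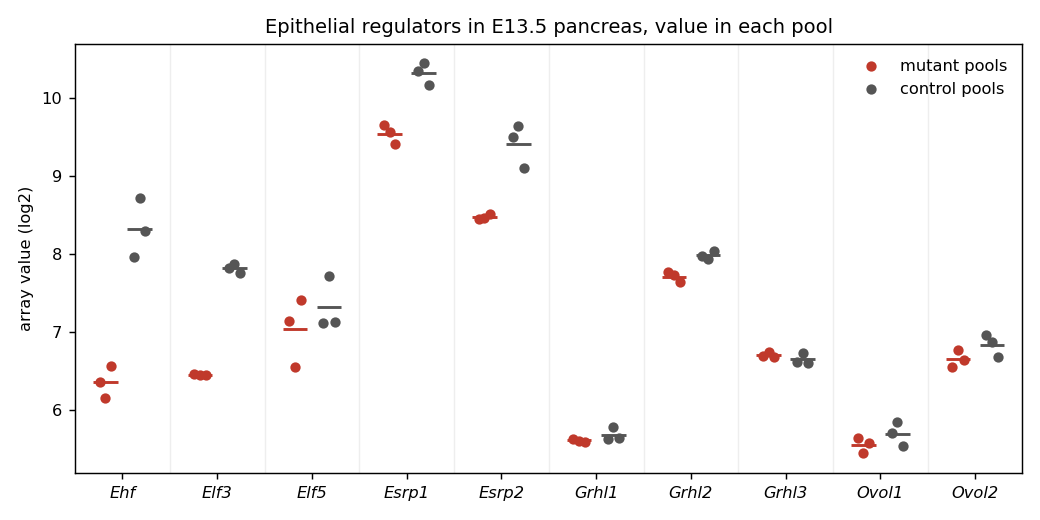
Array values (log2, vertical axis) of the 10 regulators in E13.5 pancreata, with each point 1 pool and each horizontal bar the mean of 3 mutant pools (red) or 3 control pools (grey). The red and grey points stand apart for Ehf, Elf3, Esrp1, Esrp2 and Grhl2 and overlap for Elf5, Grhl1, Grhl3, Ovol1 and Ovol2.

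Ehf, an ETS factor of branching and secretory epithelia, changed the most. Its array values were 6.36, 6.15 and 6.56 (log2) in the mutant pools, against 7.96, 8.72 and 8.29 in the control pools. The highest mutant pool lay 1.40 below the lowest control pool, although the control pools themselves spanned 0.76. The log2 change was -1.97 ± 0.18 SE (limma adjusted p = 5.77e-05), which placed Ehf at rank 120 of the 19938 genes when counted from the strongest decrease.

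Elf3, which is needed in mice for maturation of the intestinal epithelium, had values of 6.46, 6.44 and 6.45 in the mutant pools and 7.82, 7.87 and 7.76 in the control pools. Both genotypes were tight, with spans of 0.01 in the mutant pools and 0.12 in the control pools, and the gap between them was 1.30. Its log2 change was -1.37 ± 0.09 SE (limma adjusted p = 4.55e-06).

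Elf5, known for its part in the trophoblast and the mammary gland, differed from both. It measured 7.14, 6.55 and 7.41 in the mutant pools and 7.11, 7.71 and 7.13 in the control pools, so the genotypes overlapped, and its mutant pools spanned 0.86, more than those of any other of the 10 genes. The log2 change was -0.28 ± 0.22 SE (limma adjusted p = 0.501), and it moved to -0.04 without mutant replicate 2, to -0.08 without control replicate 2 and to -0.47 without mutant replicate 3. Ehf and Elf5 are close neighbours on mouse chromosome 2, with 2 genes between them in the RefSeq annotation. Of these, BC016548 was on the array, at a log2 change of 0.03 ± 0.10 SE (limma adjusted p = 0.879). Its values were 4.61 to 4.85 in the mutant pools and 4.65 to 4.73 in the control pools. That is below the 95th percentile of odorant receptor genes, a guide to array background (5.72 and 5.65), so little can be read from this gene. Cat, the catalase gene on the far side of Elf5, had a log2 change of -0.29 ± 0.09 SE (limma adjusted p = 0.0621). BC016548 and Cat were looked up after the values of Ehf and Elf5 were known.

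Promoter windows, from 250 bases before to 50 bases after a start site, were at hand for 5 of the 10 genes. They came from the RefSeq table of build GRCm38.p6, 7 windows in all. Ehf, Esrp1, Esrp2, Grhl2 and Ovol1 had no window, so of the regulators called lower only Elf3 was covered. The windows of Elf3, Grhl3 and Elf5 are shown because these 3 genes carry the E-box CAGGTG, the sequence that Zeb and Snail proteins bind, and because Elf3 fell while Grhl3 and Elf5 did not pass the test. They lie at chr1:135258423-135258722 on the minus strand (Elf3), chr4:135573583-135573882 on the minus strand (Grhl3) and chr2:103411848-103412147 on the plus strand (Elf5, the first of its 2 start sites), and are written 5′ to 3′ along the gene with each E-box, on either strand, in capitals, so that an E-box read from the other strand stands as CACCTG.
Elf3: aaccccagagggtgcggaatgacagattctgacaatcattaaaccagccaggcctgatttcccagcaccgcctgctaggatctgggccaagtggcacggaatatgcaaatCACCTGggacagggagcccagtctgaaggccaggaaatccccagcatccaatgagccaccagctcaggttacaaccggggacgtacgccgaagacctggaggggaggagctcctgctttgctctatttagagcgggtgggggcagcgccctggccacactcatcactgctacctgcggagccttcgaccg
Grhl3: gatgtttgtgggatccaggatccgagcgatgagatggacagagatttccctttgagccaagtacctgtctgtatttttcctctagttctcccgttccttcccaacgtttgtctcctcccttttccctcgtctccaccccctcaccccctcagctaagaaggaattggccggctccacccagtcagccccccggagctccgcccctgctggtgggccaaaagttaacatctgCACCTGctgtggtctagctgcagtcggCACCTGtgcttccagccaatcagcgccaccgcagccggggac
Elf5: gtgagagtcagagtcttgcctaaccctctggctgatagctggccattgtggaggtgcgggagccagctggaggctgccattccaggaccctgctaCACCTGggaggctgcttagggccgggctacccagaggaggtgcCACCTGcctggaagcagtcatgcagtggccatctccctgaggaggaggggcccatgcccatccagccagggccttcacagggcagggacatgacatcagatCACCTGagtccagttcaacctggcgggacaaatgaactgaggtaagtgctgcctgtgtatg
Elf3 had 1 E-box, 140 bases before its start, Grhl3 had 2, 19 bases before and 8 bases after its start, and Elf5 had 3, of which the nearest lay 11 bases before its start. The second Elf5 window held 1 more, and the windows of Grhl1 and Ovol2 held none, so that 4 of the 7 windows carried this motif, against 20.2% of all 32851 windows of the table. Searched on both strands in the same way, the Tcf and Lef motif CTTTGAT was found in 1 of the 7, the second Elf5 window (3.73% of all windows). The Grainyhead motif AACCNGTT (2.09% of all windows), the ETS motif CCGGAAGT (3.89%) and the Ovol motif CCGTTA (2.76%) were found in none. A match shows only that the letters are present.

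Among 25 ETS family genes on the array, Ehf and Elf3 had the strongest decreases. Of the 22 outside the 10 regulators, 4 were called higher, 3 lower and 15 in neither direction, with a median log2 change of 0.13. Elf4, a relative of the Elf group active in blood and endothelial cells, fell too (log2 change -1.11 ± 0.11 SE, limma adjusted p = 0.000109). In the other direction, Etv5 (log2 change 2.28 ± 0.13 SE) and Etv4 (1.54 ± 0.12 SE), ETS genes that FGF signaling induces, rose by far the most, and Erg, an endothelial factor, rose by 0.42 ± 0.10 SE (limma adjusted p = 0.0248). Erg lost its call when any 1 of control pools 1 and 3 and mutant pools 1 and 3 was left out (limma adjusted p between 0.0556 and 0.1), and also with the replicate block (0.0553), with arrays centred on housekeeping genes (0.127) and with all rows in the fit (0.0819), and 2 ETS genes were then higher. Without control replicate 1, mutant replicate 1 or mutant replicate 3 only 1 was lower.

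**Figure D2:**
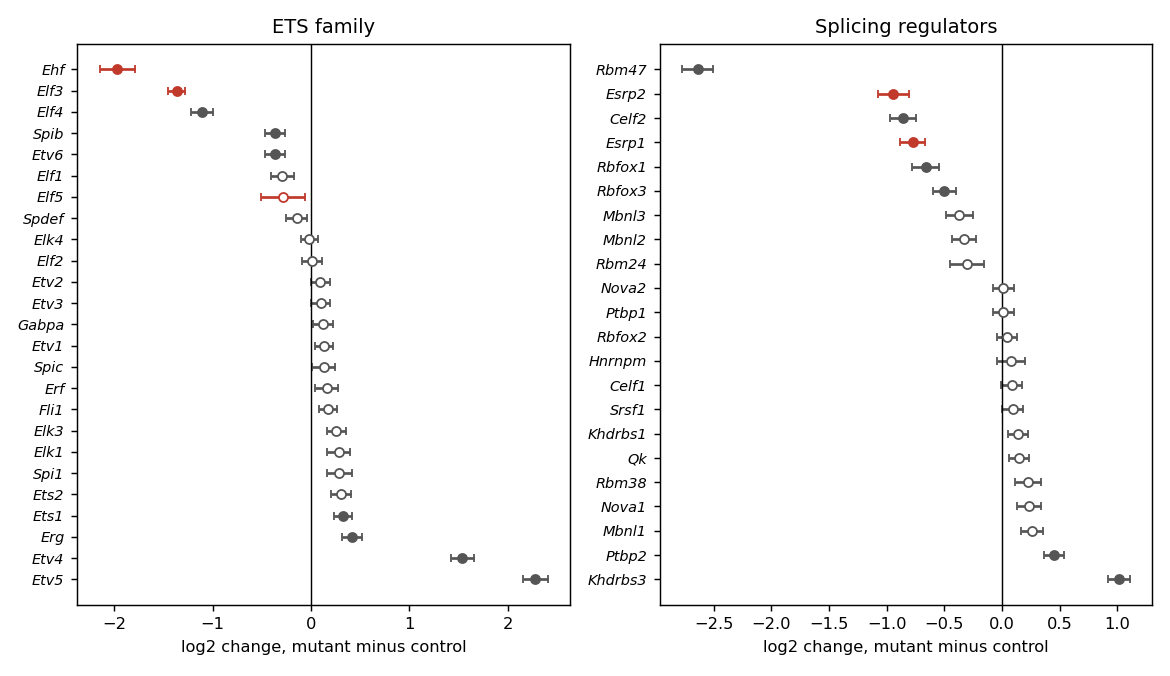
Log2 change, mutant minus control (horizontal axis), of 25 ETS family genes (left) and 22 splicing regulators (right), ordered from the strongest decrease at the top. Red marks members of the 10 regulators, bars are standard errors, and filled points passed an adjusted p of 0.05 from limma; Ehf and Elf3 head the ETS genes, and Esrp2 and Esrp1 stand at ranks 2 and 4 of the splicing regulators.

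Both Esrp genes fell. Esrp1 had array values of 9.65, 9.56 and 9.40 in the mutant pools, against 10.34, 10.44 and 10.16 in the control pools (log2 change -0.78 ± 0.11 SE, limma adjusted p = 0.000877). Esrp2 had 8.44, 8.46 and 8.51 in the mutant pools, against 9.49, 9.64 and 9.10 in the control pools (log2 change -0.94 ± 0.13 SE, limma adjusted p = 0.000919). The genotypes were apart by 0.51 for Esrp1 and 0.60 for Esrp2, and in both genes control replicate 2 was the highest and control replicate 3 the lowest control pool.

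Other splicing regulators were mixed. Of 20 such genes, 4 were called lower, 2 higher and 14 in neither direction, with a median log2 change of 0.06. Rbm47, an RNA-binding protein of endodermal epithelia, fell 6.24-fold. It had values of 6.73, 6.45 and 6.60 in the mutant pools and 9.13, 9.51 and 9.05 in the control pools (log2 change -2.64 ± 0.13 SE, limma adjusted p = 1.23e-06). Celf2 (log2 change -0.86 ± 0.11 SE) and the neuronal splicing factor gene Rbfox1 (-0.66 ± 0.12 SE) also fell, and Khdrbs3 rose (1.01 ± 0.10 SE).

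The array gives 1 value per gene and cannot show which splice forms were made, so of the transcripts that Esrp proteins splice only the level was measured. Of 18 of them, 4 were called lower, 1 higher and 13 in neither direction, with a median log2 change of -0.07. The lower count was 3 without control replicate 1 or mutant replicate 1 and 5 without mutant replicate 3. The higher count was 3 with array weights, arrays centred on their medians, quantile normalization or only genes above the lower quartile. Fgfr2, whose epithelial form is the receptor for FGFs from the mesenchyme, had values of 9.40, 9.08 and 9.33 in the mutant pools and 10.23, 9.93 and 10.01 in the control pools (log2 change -0.79 ± 0.12 SE, limma adjusted p = 0.00141). Fgfr3 (-0.61 ± 0.10 SE), the actin regulator gene Enah (-0.39 ± 0.09 SE) and the integrin gene Itga6 (-1.19 ± 0.11 SE) fell as well. Cd44, a receptor for hyaluronan, rose 2.14-fold, with values of 7.05, 7.07 and 7.38 in the mutant pools and 6.22, 5.99 and 6.01 in the control pools (log2 change 1.097 ± 0.12 SE, limma adjusted p = 0.000168).

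None of the Grainyhead-like genes passed the test. Grhl2, the member with the broadest part in simple epithelia, came closest, with values of 7.76, 7.72 and 7.64 in the mutant pools, against 7.97, 7.94 and 8.03 in the control pools. Its genotypes did not overlap, with a gap of 0.18, and the log2 change was -0.27 ± 0.09 SE (limma adjusted p = 0.0748). Over the alternative settings its adjusted p ran from 0.0314 to 0.197.

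Grhl3, which acts in the epidermis and in closure of the neural tube, had 6.69, 6.75 and 6.68 in the mutant pools, against 6.62, 6.72 and 6.60 in the control pools (log2 change 0.06 ± 0.09 SE, limma adjusted p = 0.763). Centred on housekeeping genes, this value was -0.03. Grhl1, of the epidermis and hair follicle, measured 5.63, 5.60 and 5.59 in the mutant pools, against 5.62, 5.78 and 5.64 in the control pools (log2 change -0.07 ± 0.09 SE, limma adjusted p = 0.686). That is near the background of the array, for which 1027 odorant receptor genes gave a guide: the 95th percentile of their group means was 5.72 in the mutant pools and 5.65 in the control pools. Ovol1 lay in the same range, so little can be read from either gene.
Among 8 relatives of the regulators by protein family, 1 was called lower, none higher and 7 in neither direction (0 were higher at an unadjusted p of 0.05). The one that fell was Tfcp2l1, of the same family as the Grainyhead-like genes and a factor of kidney collecting ducts and pluripotent cells (log2 change -0.62 ± 0.10 SE, limma adjusted p = 0.00161).

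Ovol2, a repressor that keeps epithelial cells from taking on mesenchymal features, had values of 6.55, 6.76 and 6.64 in the mutant pools, against 6.96, 6.87 and 6.68 in the control pools (log2 change -0.19 ± 0.11 SE, limma adjusted p = 0.329). Ovol1 had 5.64, 5.44 and 5.57 in the mutant pools, against 5.70, 5.84 and 5.53 in the control pools (log2 change -0.14 ± 0.11 SE, limma adjusted p = 0.482). The genotypes overlapped in both genes. With array weights in the fit Ovol2 had a log2 change of -0.30 and passed (adjusted p = 0.0208).

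The factors on the mesenchymal side did not move as a block. Of 10 genes of this list, 4 were called higher, 2 lower and 4 in neither direction, with a median log2 change of 0.24. Zeb1, a repressor of Cdh1 and of the Esrp genes, fell, with 8.93, 9.07 and 9.08 in the mutant pools, against 9.85, 9.95 and 9.95 in the control pools (log2 change -0.89 ± 0.09 SE, limma adjusted p = 0.000121). Its relative Zeb2 rose, with 10.16, 10.12 and 10.20 in the mutant pools, against 9.61, 9.49 and 9.75 in the control pools (log2 change 0.54 ± 0.10 SE, limma adjusted p = 0.0039). For both genes the genotypes stood apart, in opposite directions.
Snai2 rose by 0.41 ± 0.09 SE (limma adjusted p = 0.0159), a call lost when any 1 of control pools 1 and 2 and mutant pool 1 was left out (limma adjusted p between 0.0527 and 0.0704), with arrays centred on housekeeping genes (0.32, limma adjusted p = 0.0709) and with all rows in the fit (0.0546). Snai1 had a log2 change of 0.10 ± 0.11 SE (limma adjusted p = 0.668). The homeobox gene Prrx1, of embryonic mesenchyme, fell 5.61-fold (log2 change -2.49 ± 0.14 SE), while Foxc2 (0.69 ± 0.12 SE) and Twist1 (0.57 ± 0.12 SE) rose.

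**Figure D3:**
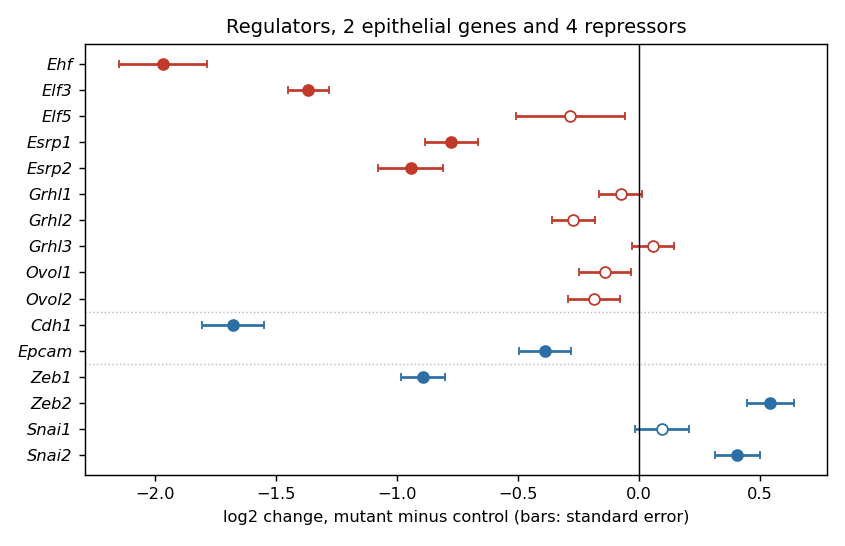
Log2 change, mutant minus control (horizontal axis, bars are standard errors, n = 3 pools per genotype), of the 10 regulators (red), of the epithelial genes Cdh1 and Epcam and of 4 genes of Zeb and Snail repressors (blue). Filled points passed an adjusted p of 0.05 from limma; Zeb1 lies left of 0 and Zeb2 and Snai2 lie right of it.

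Related members were compared directly in 8 pairs, by the difference of their log2 values within each pool. With 3 pools against 3, an exact permutation test cannot go below p = 0.1, so no pair could pass. Between Ehf and Elf5 the change differed by -1.69, with within-pool differences of -0.78, -0.40 and -0.85 in the mutant pools and 0.85, 1.01 and 1.17 in the control pools (two-sided exact permutation p = 0.1, adjusted p = 0.133 over the 8 pairs). For Elf3 against Elf5 the difference was -1.08 and for Elf3 against Ehf 0.60, both with genotypes apart (exact permutation p = 0.1 for each). Grhl2 differed from Grhl3 by -0.33 (exact permutation p = 0.1). Grhl1, which lies near array background, differed from Grhl2 by 0.20 and from Grhl3 by -0.13. In both of these pairs, too, the genotypes were apart (exact permutation p = 0.1 for each). Esrp1 and Esrp2 overlapped, at a difference in change of 0.17 (exact permutation p = 0.2), as did Ovol1 and Ovol2 at 0.05 (exact permutation p = 0.8). Leaving out 1 pool moved the Esrp difference between 0.10 and 0.26 and that of the Ovol genes between -0.05 and 0.16.

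Genes of epithelial structure, some of them known targets of these regulators, were lower as well. Of 27 genes of adhesion, tight junctions, polarity, keratin filaments and the matriptase system, 23 were called lower, none higher and 4 in neither direction, and their median log2 change was -0.79. In the fit that left out mutant pool 2, 1 was higher. The serine protease gene Prss8 (log2 change -2.02 ± 0.16 SE), Krt8 (-1.84 ± 0.12 SE), Cdh1 (-1.68 ± 0.13 SE) and the polarity gene Llgl2 (-1.40 ± 0.13 SE) headed them. Epcam, a membrane protein of nearly all epithelial cells, had a log2 change of a smaller size (-0.39 ± 0.11 SE, limma adjusted p = 0.0368), and its call was lost when any 1 pool other than control pool 2 was left out (limma adjusted p between 0.0624 and 0.122). With all pools it was also lost with the replicate block (limma adjusted p = 0.0553), with arrays centred on their medians (0.0653) and with all rows in the fit (0.109).

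To set each regulator beside epithelial genes in the same pool, the mean of Cdh1 and Epcam was subtracted from its value. Cdh1 is itself a target of Grainyhead-like factors, and the log2 changes of Cdh1 (-1.68) and Epcam (-0.39) were unlike. The mean of Cdh1 and Epcam is therefore not an independent measure of the amount of epithelial RNA. This index was 9.25, 9.01 and 9.22 in the mutant pools and 10.19, 10.23 and 10.16 in the control pools, a difference of -1.03 (two-sided exact permutation p = 0.1, the smallest that 3 against 3 allows). Relative to it, Ehf was lower by a further log2 difference of -0.94 and Elf3 by -0.33, with genotypes apart in both (exact permutation p = 0.1 for each). Esrp1 and Esrp2 overlapped between genotypes, at differences of 0.26 and 0.09 (exact permutation p = 0.2 and 0.7). The other 6 regulators were higher relative to the index, from 0.75 for Elf5 to 1.09 for Grhl3, in all 3 mutant pools against all 3 control pools. For a gene whose own value does not move, this difference is the decrease of the index itself.

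The result depends on the genes of the index. Against Krt8 and Krt18 instead, Ehf stayed lower (-0.66), Elf3 overlapped between the genotypes (-0.06), and Esrp1 (0.53) and Esrp2 (0.37) were higher in all mutant pools. Against the mean of all 27 epithelial genes, Ehf was at -1.12, Elf3 at -0.52, Esrp1 at 0.07 and Esrp2 at -0.10, both Esrp genes with overlap. Against Cdh1 alone, an index added after the values were seen, Ehf was at -0.29 with overlapping genotypes (exact permutation p = 0.4) and Elf3 (0.31), Esrp1 (0.90) and Esrp2 (0.73) were higher in all mutant pools. Against Epcam alone, also added then, Ehf was at -1.58, Elf3 at -0.98, Esrp1 at -0.39 and Esrp2 at -0.55. Ehf was on the low side under all 5 indices, and the Esrp genes changed sign between them. The other 6 regulators had positive differences under all 5, but the size followed the index: 1.40 to 1.74 against Cdh1 alone and 0.11 to 0.45 against Epcam alone. Against Epcam alone the genotypes overlapped in 4 of the 6, Grhl2 (0.12, exact permutation p = 0.3), Elf5 (0.11, p = 0.8), Ovol1 (0.25, p = 0.4) and Ovol2 (0.20, p = 0.4), and Elf5 overlapped also against all 27 genes (exact permutation p = 0.2).

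**Figure D4:**
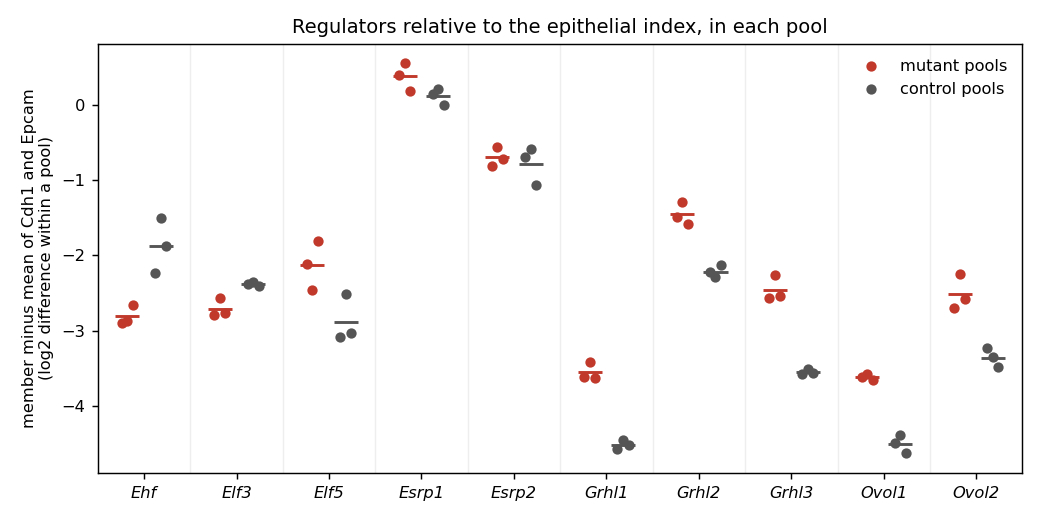
Value of each regulator minus the mean of Cdh1 and Epcam in the same pool (log2 difference, vertical axis), with each point 1 pool and each bar the mean of 3 mutant pools (red) or 3 control pools (grey). Ehf and Elf3 lie lower in the mutant pools, Esrp1 and Esrp2 overlap, and the other 6 lie higher.

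A further list held 15 transcription factors of epithelia other than the pancreatic ones. Of these, 4 were called higher, 1 lower and 10 in neither direction, with a median log2 change of 0.03. Tfap2a, a factor of surface ectoderm and neural crest, rose 3.05-fold, with 7.78, 7.24 and 7.40 in the mutant pools and 5.995, 5.86 and 5.75 in the control pools (log2 change 1.61 ± 0.14 SE, limma adjusted p = 3.99e-05). The intestinal homeobox gene Cdx2 (0.97 ± 0.10 SE), Foxa1 (0.72 ± 0.14 SE) and Klf5, of gut crypts (0.61 ± 0.10 SE), rose too. The one that fell was Trp63, the factor of stratified epithelia (-0.56 ± 0.09 SE, limma adjusted p = 0.00273), and without control replicate 3 a further gene of the list was lower.

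Markers of the cell types that the pools can hold were read beside these values, and their part in the results was not tested. Of 9 markers of pancreatic epithelium, 8 were lower. Their mean value lay between 7.06 and 7.24 in the mutant pools and between 9.60 and 9.92 in the control pools. Pdx1, a transcription factor needed to form the pancreas, was at 5.86, 5.87 and 5.60 in the mutant pools and 9.87, 9.95 and 9.97 in the control pools. Of 11 markers of gut epithelium, 3 were higher and 2 lower (1 lower without control replicate 1 or 2 or mutant replicate 3). Their means were 6.57 to 6.71 in the mutant pools and 6.17 to 6.29 in the control pools. The median log2 change of the 11 was only 0.11. Lgr5 weighed most in these means, at a log2 change of 4.44 ± 0.11 SE. The next largest rise was that of Cdx2 (0.97 ± 0.10 SE), and Vil1 fell the most (-1.19 ± 0.13 SE). Markers of stratified epithelium, in which Grhl3, Ovol1 and Ehf are also active, stayed low in both, with means of 5.47 to 5.60 in the mutant pools and 5.54 to 5.62 in the control pools. Of these 14 markers 2 were lower and 1 was higher, a call lost when any 1 of control pools 1 and 3 and mutant pools 1 and 3 was left out.
Of 13 mesenchymal markers, 4 were higher and 1 was lower, with means of 10.62 to 10.75 in the mutant pools and 10.47 to 10.60 in the control pools. The 4 were 2 without control replicate 2 or mutant replicate 2 and 1 without mutant replicate 1 or 3, and the 1 was 0 without control replicate 1 or 3 or mutant replicate 3 and 2 without control replicate 2. Of 8 endothelial markers 1 was higher, with a median log2 change of 0.30 over the 8. None was higher without control replicate 2 or 3 or any 1 mutant pool, while 5 were at an unadjusted p of 0.05, 7 with array weights, 3 with either filter on dim genes and 2 with arrays centred on their medians. Of 8 leukocyte markers none passed (2 were higher at an unadjusted p of 0.05, and 1 was higher without mutant replicate 2). Of 5 mesothelial markers 3 were lower (1 without any 1 control pool or mutant replicate 1), and all 4 neural markers were lower, also with any 1 pool left out. Whether neural cells were fewer was not tested. In newborn mutants the study saw Tuj1-positive cells, which it takes as neural, within the smooth muscle layer of some large cysts.

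The pools of 1 genotype also differed among themselves in their epithelial genes. Control replicate 2 was the highest control pool in 8 of the 10 regulators and in 18 of the 27 epithelial genes. Among the mutant pools, replicates 2 and 3 were each the lowest in 4 of the 10 regulators. Replicate 2 was the lowest in 19 of the 27 epithelial genes and in 2 of the 9 pancreatic markers, and replicate 3 in 6 of the 27 and 6 of the 9. Without control replicate 2 the log2 change of Ehf was -1.77, and over all single pools left out it ran from -2.15 to -1.77. The count of 4 lower regulators was the same without any 1 of the 6 pools.

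The genes whose 6 values, centred on their own mean, lay closest to those of a regulator were found by the root mean square difference over the 6 arrays, as a description of likeness in these pools alone. Closest to Ehf were Wfdc15b (0.11), Tmed6 (0.14) and Adamts16 (0.15), all with larger differences than the nearest genes of the other 3 regulators. Elf3 was followed most closely by Camk2b (0.04), Tmem184a (0.06) and Myt1 (0.06). Nearest to Esrp1 were Gpr142 (0.04), Tor4a (0.04) and Mfsd6 (0.05), and nearest to Esrp2 were Kcnmb1 (0.04), 6030498E09Rik (0.06) and Tob1 (0.07).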

How the data were processed

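RNA of 3 mutant and 3 control pools of E13.5 pancreata was measured on 1 array each. The study's methods describe the pools of a genotype as independent. The values deposited by the authors are log2 expression values, 1 per transcript cluster. How they corrected background, summarized probes and normalized between arrays was not stated in any source at hand (not given in the sources used here). The median of an array was 6.37 to 6.47. No detection calls were used. The number of pools, 3 per genotype, limits precision.

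Of 35556 rows, 21789 had 1 gene symbol in GEO's platform annotation and were used, 1621 had several and 12146 had none. Where a gene had more than 1 row (999 genes), its brightest on average stood for it. Entrez identifiers of 21698 rows matched RefSeq (GRCm38.p6), which changed 0 symbols. Mutant and control were compared by linear models and moderated statistics of limma 3.58.1 (R 4.3.3), using no covariate and no filter, with Benjamini-Hochberg adjustment over 19938 genes. The step was tested on simulated data. Differences within pools were tested with an exact permutation test over pools. Python 3.11.15, pandas 2.3.3 and matplotlib 3.10.9 were used for tables and figures.

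The members and lists were chosen with earlier results of these data known. Named are the members, up to 4 genes of the largest change per list, the 3 genes most like each member past the test, and Zeb1, Zeb2, Snai1, Snai2, Cdh1, Epcam, Fgfr2, Ctnnb1 and Pdx1. Marker lists are given as counts and means, with named genes only for gut epithelium, beside Pdx1. Enah, BC016548 and Cat were added after their values were seen. Alternatives were a replicate block, each pool left out, 3 scalings, 2 filters on dim genes, 2 treatments of rows, a trended robust prior, array weights, other thresholds and other indices. A planned comparison of protein sequences was not run.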

Additional observations from a re-analysis of the deposited data

How the results depend on the processing

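The calls of Ehf, Elf3, Esrp1 and Esrp2 held under all 18 alternative settings, with log2 changes from -2.15 to -1.77 for Ehf, -1.45 to -1.33 for Elf3, -0.86 to -0.68 for Esrp1 and -1.10 to -0.83 for Esrp2, and the count of lower regulators ran from 4 to 6. Grhl2 passed with array weights (-0.23), with arrays centred on housekeeping genes (-0.36), and at -0.27 with only genes above the lower quartile or above the median, where fewer genes were tested, and at an unadjusted p of 0.05. Ovol2 passed with array weights (-0.30). Grhl3 turned to -0.029 with arrays centred on housekeeping genes and Snai1 to -0.053 with array weights. Centring subtracts 1 value per array, so it moves the log2 changes of all genes by the same amount. Of the 7 housekeeping genes used for it, 1 was itself called higher and none lower. That gene was Pgk1 (log2 change 0.64 ± 0.10 SE, limma adjusted p = 0.0017). The cause of the shifts under the other settings was not tested.

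Array weights gave 2422 genes lower and 3025 higher, an unadjusted p of 0.05 gave 2386 and 2695, housekeeping centring gave 822 higher and an adjusted p of 0.01 gave 723 higher. With single pools left out, 1132 to 1413 genes were lower and 843 to 1328 higher, the fewest without mutant replicate 1. Relative to the epithelial index, Esrp1 turned to -0.39 against Epcam alone, Esrp2 to -0.10 against all epithelial genes and to -0.55 against Epcam alone, and Elf3 to 0.31 against Cdh1 alone, where Esrp1 was at 0.90 and Esrp2 at 0.73; the indices of 1 gene were chosen after seeing the data. With 1 pool left out Esrp2 ran from -0.049 (without control replicate 3) to 0.19, and the difference of Ovol1 and Ovol2 from -0.047 (without mutant replicate 1) to 0.16, at -0.01 without control replicate 1.

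Deviations from the genotype means correlated at 0.01, -0.15 and -0.05 between same-numbered pools. Between differently numbered pools they correlated at -0.19 to 0.19. With so few pools per genotype, these correlations cannot tell whether the replicate numbers pair the pools. With the replicate block 1274 genes were lower and 1011 higher, and 4 regulators were lower. Outside the regulators the block ended the calls of Epcam and Erg and moved 4 list counts, the higher ETS genes to 2, the higher endothelial and stratified markers to 0 and the lower mesothelial markers to 1. Where a pool left its genotype with 2, the spread was pooled over both genotypes. Array values near background bound what can be read from Grhl1, Ovol1 and BC016548.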
